A study of Mus musculus with 24 samples.

Results

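*Atf4*, *Atf3*, *Ddit3*, *Trib3*, *Ppp1r15a*, *Asns*, *Chac1*, *Sesn2*, *Ddit4* and *Vldlr* are genes of the integrated stress response (ISR), the program of the transcription factors ATF4 and CHOP. These 10 genes, of 49315 in the count table, were followed across 8 treatments of MS03 cells. They were chosen with their values in these libraries already known. Their levels, differences and calls between treatments are therefore a description, and nothing is inferred from their calls. The lists of other pathway genes, to which the same fit is applied, were also drawn up with earlier results of these data known. All 10 were among the 16070 genes that passed a filter on low counts.

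MS03 is an immortalized murine Schwann cell line from an *Nf2* flox/flox mouse that was made *Nf2*-/- by infection with Cre. Every group, controls included, was this single line with this deletion, grown in DMEM with 10% FBS. Cells received DMSO or a drug against focal adhesion kinase (FAK) for 24 hours. Kinase inhibitors were GSK2256098, VS-4718, IN10018 (ifebemtinib) and defactinib, each at 1 µM. The other drugs were PROTACs, which join a FAK inhibitor to a group that recruits an E3 ubiquitin ligase so that FAK is degraded. PROTAC FAK degrader 1 was used at 1 µM, and GSK215 and BSJ-04-0146 were used at 0.1 µM. Poly(A) RNA was sequenced in bulk from 3 libraries per treatment, 24 in all, which the labels call biological replicates without saying how the cultures were kept apart. *P* values thus measure only the spread among these libraries, and all comparisons with DMSO share the same 3 control libraries.

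In the ISR, the kinases PERK, GCN2, PKR and HRI phosphorylate the translation factor eIF2 on its alpha subunit. General protein synthesis falls, while the ATF4 messenger RNA is translated more because of short open reading frames upstream of its coding sequence. ATF4 pairs with other leucine zipper (bZIP) proteins, mainly of the C/EBP family, and induces genes of amino acid supply, redox balance and growth control, among them the transcription factors CHOP (*Ddit3*) and ATF3. Since the response is controlled largely by phosphorylation and translation, messenger RNA shows its transcriptional output and not its trigger.

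Total counts per library ranged from 14472462 to 27449516, and from 14472462 to 21588406 in the PROTAC groups. The genes followed had 23 to 12403 counts in each library, and the coefficient of variation of their level within a treatment had a median of 3.83% over the 80 gene and treatment pairs, with the highest, 19.9%, for *Atf3* with BSJ-04-0146. Replicates differed by more than counting noise in all 24 pairs. Of 9 Schwann cell markers, 6 were on average over 1 CPM (counts scaled to a common library size) in every group, while the others, among them *S100b* and *Gap43*, were below it. The summed level of the 9 markers was 57.0 to 61.1 CPM in the DMSO libraries, 51.1 to 57.5 with PROTAC FAK degrader 1, 60.6 to 62.7 with IN10018, 79.5 to 89.1 with defactinib, 79.1 to 84.2 with GSK2256098, 118 to 134 with VS-4718, 211 to 231 with BSJ-04-0146 and 232 to 245 with GSK215. In bulk RNA, fewer cells that express a gene and less RNA per cell cannot be told apart. Among markers of other cells, the macrophage list summed to 3.71 to 4.08 CPM with DMSO and 11.2 to 12.0 with PROTAC FAK degrader 1, nearly all of it *Cd68*, with *Ptprc* and *Adgre1* at 1 count or fewer in every library. The macrophage list was at 6.20 to 7.88 CPM with GSK215, 7.84 to 9.34 with BSJ-04-0146 and at most 6.17 with the kinase inhibitors. The fibroblast list, nearly all of it *Pdgfra*, with *Lum* at 0 counts and *Dcn* and *Dpt* at 3 or fewer in every library, summed to 11.9 to 13.5 CPM with DMSO, 24.2 to 28.2 with GSK215, 24.8 to 27.9 with BSJ-04-0146 and 8.68 to 9.14 with PROTAC FAK degrader 1. Only *Pdgfra* of the 5 fibroblast markers and *Tubb3* of the 5 neuron markers passed 1 CPM on average, and the 5 endothelial markers summed to at most 0.790 CPM. The part of these marker shifts in the levels below was not tested.

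Promoters of the 10 genes were read for the binding motifs of this pathway, from 250 bases before to 50 bases after each RefSeq start site on GRCm38.p6. All 10 genes matched, with 11 promoters because *Vldlr* has 2. The core of the C/EBP-ATF response element (CARE), TGATGNAA or TTNCATCA on the other strand, was present for 5 of 10 genes, compared with 4.51% of the 27025 genes with a promoter in the same table. A cyclic AMP response element (CRE), TGACGTCA, was present for 1 of 10 genes, *Ppp1r15a*, compared with 2.03% of genes. The E-box CACGTG was present for none of them, compared with 8.09% of genes. The 5 promoters with a CARE core and the 1 with a CRE are printed 5′ to 3′ on the strand of the gene, because they hold the letters that ATF4 with its partners, or CREB and ATF factors, are known to bind, and the capitals mark the matches. A match describes the sequence only, and its absence says nothing beyond this window.
Atf3 (chr1:191183284-191183583, − strand): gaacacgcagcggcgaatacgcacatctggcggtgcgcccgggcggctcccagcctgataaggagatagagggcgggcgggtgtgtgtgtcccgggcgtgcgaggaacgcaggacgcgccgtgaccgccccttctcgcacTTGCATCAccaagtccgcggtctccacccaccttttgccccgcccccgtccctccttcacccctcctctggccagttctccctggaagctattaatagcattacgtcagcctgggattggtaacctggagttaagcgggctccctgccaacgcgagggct
Trib3 (chr2:152344011-152344310, − strand): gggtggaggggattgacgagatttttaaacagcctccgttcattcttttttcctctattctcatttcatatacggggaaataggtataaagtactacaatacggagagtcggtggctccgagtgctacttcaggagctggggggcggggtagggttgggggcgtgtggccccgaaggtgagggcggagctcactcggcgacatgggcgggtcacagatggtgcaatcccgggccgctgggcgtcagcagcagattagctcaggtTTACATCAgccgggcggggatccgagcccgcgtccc
Chac1 (chr2:119350992-119351291, + strand): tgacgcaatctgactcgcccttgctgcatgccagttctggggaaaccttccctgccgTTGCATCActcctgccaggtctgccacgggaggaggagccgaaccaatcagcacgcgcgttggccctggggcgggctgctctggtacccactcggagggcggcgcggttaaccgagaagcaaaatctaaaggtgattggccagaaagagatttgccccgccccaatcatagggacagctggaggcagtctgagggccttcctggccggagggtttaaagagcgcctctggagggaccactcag
Asns (chr6:7693160-7693459, − strand): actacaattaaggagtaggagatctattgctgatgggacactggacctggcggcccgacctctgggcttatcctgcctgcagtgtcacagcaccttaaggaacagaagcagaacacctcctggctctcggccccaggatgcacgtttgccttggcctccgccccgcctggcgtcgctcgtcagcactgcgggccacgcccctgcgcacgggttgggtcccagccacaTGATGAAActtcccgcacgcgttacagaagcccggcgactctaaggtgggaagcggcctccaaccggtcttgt
Vldlr (chr19:27216770-27217069, + strand): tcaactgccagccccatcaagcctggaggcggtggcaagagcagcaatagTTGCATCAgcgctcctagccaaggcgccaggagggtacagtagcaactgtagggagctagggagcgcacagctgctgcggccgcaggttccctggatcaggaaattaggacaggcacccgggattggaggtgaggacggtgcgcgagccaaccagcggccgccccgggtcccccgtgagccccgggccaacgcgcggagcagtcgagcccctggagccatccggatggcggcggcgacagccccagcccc
Ppp1r15a (chr7:45526219-45526518, − strand): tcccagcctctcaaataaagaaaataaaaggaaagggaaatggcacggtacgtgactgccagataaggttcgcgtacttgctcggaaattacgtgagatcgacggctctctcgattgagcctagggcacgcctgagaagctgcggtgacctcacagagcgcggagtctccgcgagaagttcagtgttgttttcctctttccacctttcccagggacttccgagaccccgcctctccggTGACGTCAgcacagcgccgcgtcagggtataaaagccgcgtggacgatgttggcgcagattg

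The CARE core began 110 bases before the start site of *Atf3*, 193 before that of *Chac1*, 23 before that of *Asns* and 200 before the downstream start site of *Vldlr*, and at base 15 of the *Trib3* transcript. The CRE of *Ppp1r15a* began 12 bases before its start site. No member promoter held 2 of the motifs, and those of *Atf4*, *Ddit3*, *Sesn2* and *Ddit4* held none.

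Every one of the 10 genes was highest with PROTAC FAK degrader 1, and 9 of the 10 came next with IN10018. GSK215 and BSJ-04-0146 were given at a lower dose than the rest, so the order describes levels and does not rank these PROTACs against the other drugs. All 10 were below DMSO with VS-4718, GSK2256098, GSK215 and BSJ-04-0146, so that drugs against the same kinase were on opposite sides of the control. The distance between the highest and the lowest treatment mean was 44.5-fold for *Trib3*, 27.6-fold for *Ddit3*, 27.4-fold for *Chac1*, 25.5-fold for *Atf3*, 14.5-fold for *Ddit4* and 10.9-fold for *Ppp1r15a*, but 5.10-fold for *Sesn2*, 4.90-fold for *Asns*, 4.12-fold for *Atf4* and 2.89-fold for *Vldlr*. The plot of levels by library shows these values.

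**Figure D1:**
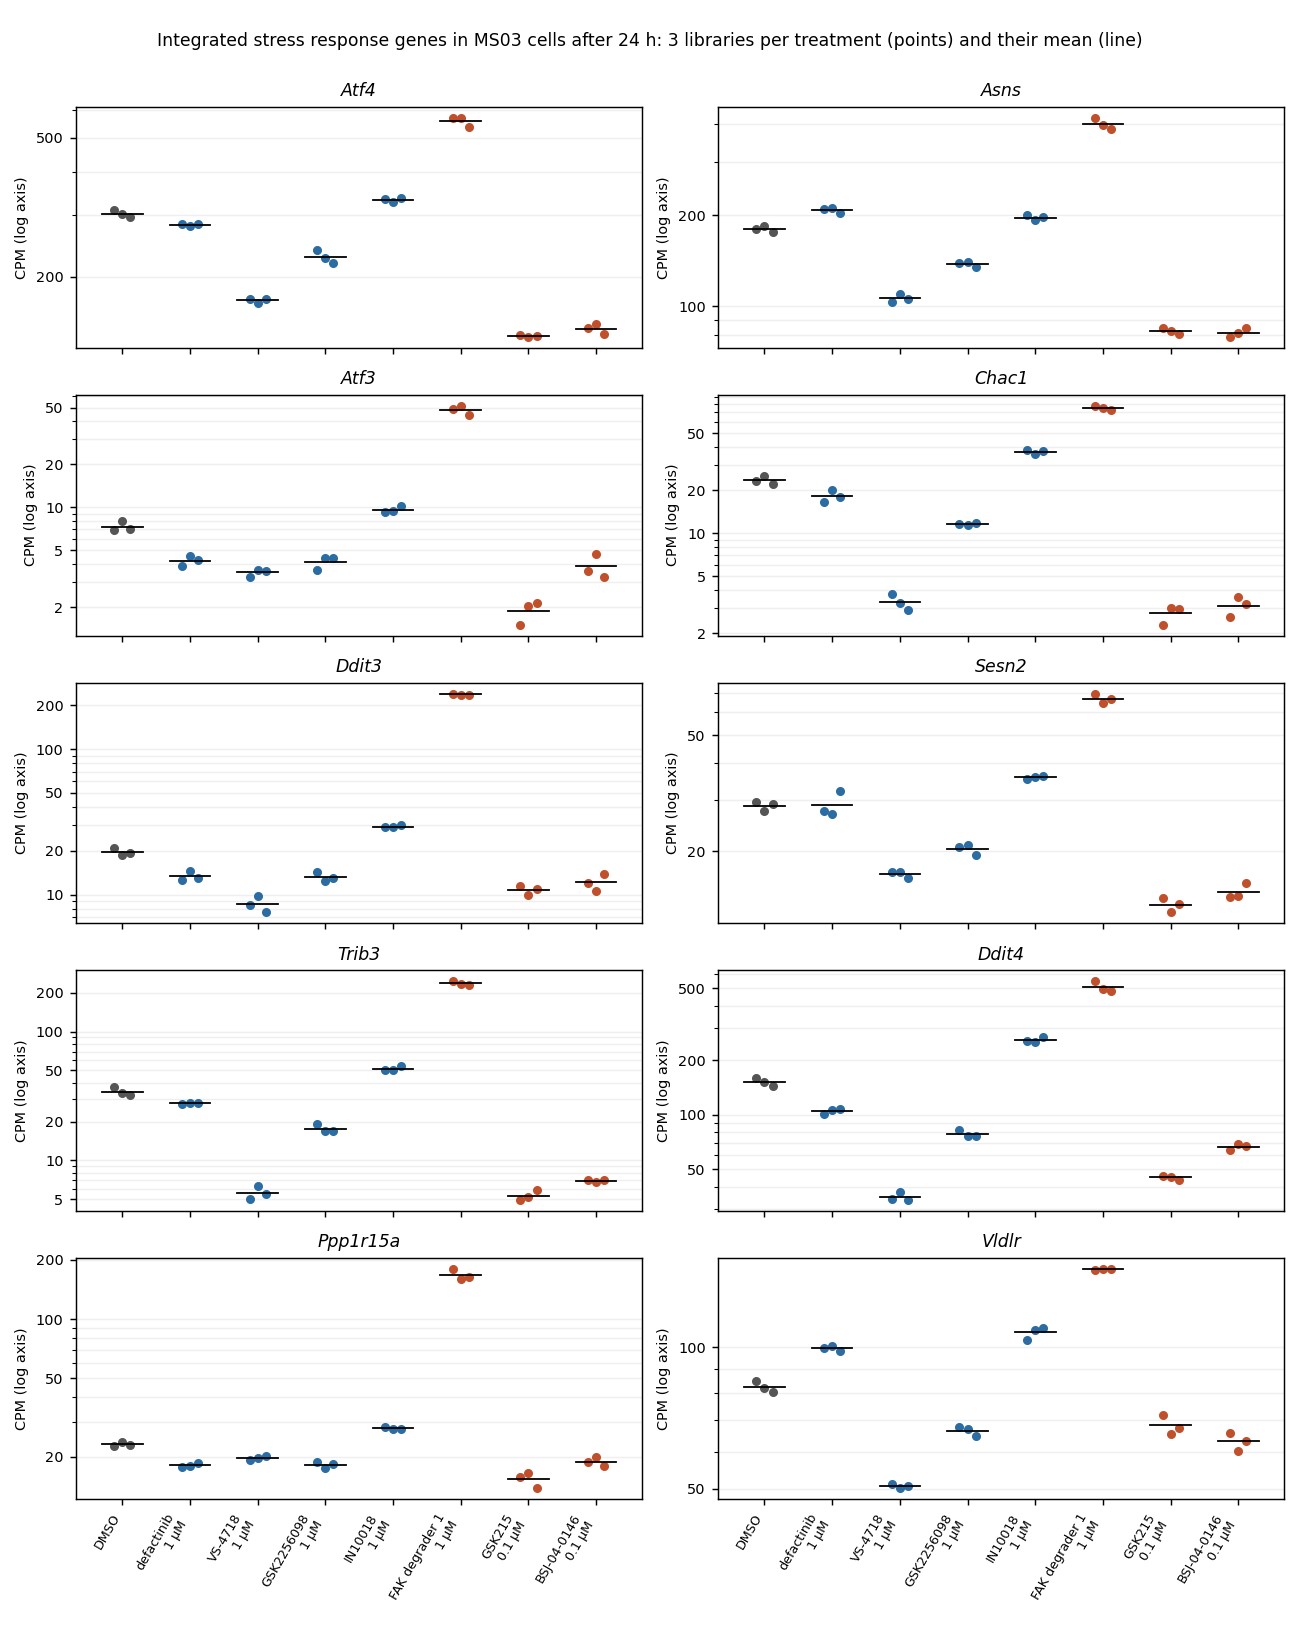
Level of each ISR gene in CPM (log axis) in the 3 libraries of each treatment (points), with the mean of the treatment as a line, in MS03 cells after 24 h. DMSO is grey, kinase inhibitors are blue and PROTACs are orange. PROTAC FAK degrader 1 lies highest for all 10 genes, whereas VS-4718, GSK2256098, GSK215 and BSJ-04-0146 lie below DMSO for all of them.

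ATF4 is the transcription factor at the centre of the response. *Atf4* (ENSMUSG00000042406, chr15:80255184-80257541 on GRCm38, + strand) was at 309.8, 303 and 297 CPM in the DMSO libraries and at 569.8, 570.1 and 536 with PROTAC FAK degrader 1, a 1.84-fold difference. It was at 334, 328 and 336 CPM with IN10018 and 283, 279 and 284 with defactinib. Its 8 treatment groups did not overlap any neighbour in their order, and the small steps from defactinib to DMSO to IN10018 were larger than the spread between replicates. The lower groups were GSK2256098, at 238, 227 and 219 CPM, VS-4718, at 173, 169 and 172, BSJ-04-0146, at 143, 146 and 137, and GSK215, at 137, 135 and 135. *Atf4* RNA with GSK215 was thus 44.7% of its DMSO level.

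*Ddit3* encodes CHOP, a bZIP factor induced by ATF4 and associated with cell death under prolonged stress. *Ddit3* (ENSMUSG00000025408, chr10:127290774-127296288, + strand) was at 21.0, 18.8 and 19.2 CPM with DMSO and 241, 237 and 234 with PROTAC FAK degrader 1. At 12.1-fold, this was the largest difference above DMSO among the 10 genes. With IN10018 it was at 29.2, 29.0 and 29.9 CPM, above every DMSO library. Defactinib, GSK2256098 and BSJ-04-0146, with means of 13.4 ± 0.995, 13.3 ± 0.932 and 12.2 ± 1.58 CPM (SD, n = 3 here and below), overlapped their neighbours and all lay under DMSO. GSK215, at 10.8 ± 0.814 CPM, overlapped BSJ-04-0146, and VS-4718 was lowest at 8.50, 9.78 and 7.56. *Ddit3* shares 68 exonic bases, 3.97% of its exonic length, with *Mars* on the opposite strand, and 105 bases, 6.13%, with another gene model of the same name. The strand setting of the counting is not given in the sources used here. *Mars* itself differed from DMSO by 0.25 on the log2 scale with PROTAC FAK degrader 1.

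ATF3 is a stress-induced bZIP factor that acts mostly as a repressor. *Atf3* (ENSMUSG00000026628, chr1:191170296-191218039, − strand) had the lowest level of the 10 genes with DMSO, also per kilobase of exon. Its DMSO libraries had 6.92, 7.97 and 7.09 CPM and those of PROTAC FAK degrader 1 had 48.7, 51.4 and 44.5, 6.58-fold more. IN10018 libraries had 9.23, 9.42 and 10.2 CPM, all above DMSO. Defactinib at 4.24 ± 0.357, GSK2256098 at 4.15 ± 0.460, BSJ-04-0146 at 3.85 ± 0.767 and VS-4718 at 3.51 ± 0.204 CPM formed a run in which each group overlapped the next, and GSK215 lay below them at 1.51, 2.03 and 2.12, 25.8% of the DMSO mean.

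*Trib3* and *Ppp1r15a* act as brakes on the pathway. TRIB3 is a pseudokinase that binds ATF4 and CHOP and also AKT. *Trib3* (ENSMUSG00000032715, chr2:152337422-152344032, − strand) was at 37.3, 33.5 and 32.0 CPM with DMSO, 246, 235 and 231 with PROTAC FAK degrader 1 and 50.5, 50.1 and 53.7 with IN10018. It was at 27.6, 27.9 and 28.1 CPM with defactinib and 19.1, 17.1 and 16.8 with GSK2256098. The last 3 groups were far lower, with 7.01, 6.78 and 7.03 CPM for BSJ-04-0146, 5.03, 6.38 and 5.51 for VS-4718 and 4.92, 5.18 and 5.87 for GSK215, and the latter 2 overlapped. PROTAC FAK degrader 1 was 6.92-fold over DMSO, and GSK215 was at 15.5% of it.

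*Ppp1r15a* encodes GADD34, the stress-induced subunit that directs protein phosphatase 1 to eIF2 alpha and so restores translation. *Ppp1r15a* (ENSMUSG00000040435, chr7:45522916-45526268, − strand) was at 22.6, 23.7 and 23.0 CPM with DMSO and 179.8, 161 and 163 with PROTAC FAK degrader 1, a 7.26-fold difference. GSK215 was the lowest group, with 15.8, 16.6 and 13.9 CPM, 66.7% of the DMSO mean, and overlapped no other. VS-4718, which had *Trib3* at 16.5% of its DMSO level, had *Ppp1r15a* at 85.3%, and defactinib, GSK2256098, BSJ-04-0146 and VS-4718 overlapped one after another between 18.0 ± 0.450 and 19.7 ± 0.409 CPM. It shares 12 exonic bases, 0.409% of its exonic length, with *Tulp2* on the opposite strand.

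*Asns* and *Chac1* serve amino acid and glutathione metabolism. ASNS makes asparagine from aspartate and glutamine, and is induced when amino acids are short. *Asns* (ENSMUSG00000029752, chr6:7675169-7693254, − strand) was at 180.3, 184 and 175 CPM with DMSO and 419, 398 and 385 with PROTAC FAK degrader 1. It differed from the other genes in that defactinib, at 209.8, 212 and 203 CPM, was above IN10018, at 199.7, 192 and 197. It was lowest with GSK215, at 84.7, 83.0 and 80.8 CPM, and BSJ-04-0146, at 79.1, 81.7 and 84.5, which overlapped.

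CHAC1 degrades glutathione. *Chac1* (ENSMUSG00000027313, chr2:119351229-119354381, + strand) had the lowest share of its DMSO level of the 10 genes. It was at 23.3, 25.1 and 21.9 CPM with DMSO, and at 2.30, 2.99 and 2.96 with GSK215, 2.59, 3.58 and 3.19 with BSJ-04-0146 and 3.77, 3.23 and 2.89 with VS-4718. GSK215 and BSJ-04-0146 overlapped, as did BSJ-04-0146 and VS-4718, and the GSK215 mean was 11.7% of the DMSO mean. PROTAC FAK degrader 1 had 77.6, 75.3 and 72.8 CPM, 3.21-fold over DMSO, IN10018 had 38.2, 35.5 and 37.5 and GSK2256098 had 11.6, 11.4 and 11.8. On the log2 scale *Chac1* thus lay further below DMSO with GSK215 than above it with PROTAC FAK degrader 1, the reverse of *Ddit3* and *Ppp1r15a*.

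*Sesn2* and *Ddit4* encode Sestrin 2 and REDD1, which both hold back mTORC1, the kinase complex that drives growth. *Ddit4* (ENSMUSG00000020108, chr10:59949669-59951834, − strand) was at 159.9, 151 and 144 CPM with DMSO, 257, 252 and 270.3 with IN10018 and 547, 495 and 483 with PROTAC FAK degrader 1. With IN10018 *Ddit4* was 1.71-fold over DMSO, the largest difference of that drug among the 10 genes. VS-4718 was lowest at 34.3, 37.2 and 33.7 CPM, followed by GSK215 at 46.0, 45.1 and 43.8 and BSJ-04-0146 at 63.6, 69.1 and 66.9, and no 2 neighbouring groups of *Ddit4* overlapped. *Sesn2* (ENSMUSG00000028893, chr4:132492032-132510501, − strand) followed the same drugs over a shorter range. It was at 29.4, 27.4 and 29.1 CPM with DMSO, 69.5, 64.6 and 66.4 with PROTAC FAK degrader 1 and 13.9, 12.3 and 13.1 with GSK215. With defactinib it was at 27.4, 26.7 and 32.1 CPM, overlapping DMSO.

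*Vldlr* encodes the very low density lipoprotein receptor, a lipid uptake receptor that ATF4 is known to induce under stress. *Vldlr* (ENSMUSG00000024924, chr19:27216484-27254231, + strand) had the smallest range. It was at 84.6, 81.8 and 80.5 CPM with DMSO, 146, 146 and 146 with PROTAC FAK degrader 1, 104, 109 and 110.1 with IN10018 and 99.6, 100.5 and 98.1 with defactinib. VS-4718 was lowest at 51.2, 50.3 and 50.6 CPM, while GSK215, GSK2256098 and BSJ-04-0146, at 68.2 ± 3.33, 66.5 ± 1.53 and 63.1 ± 2.69 CPM, overlapped their neighbours. *Vldlr* and *Asns* were the 2 genes whose defactinib libraries all lay above DMSO, by 0.27 and 0.21 on the log2 scale.

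Per kilobase of exon, the DMSO order was *Atf4* at 128.5 CPM per kilobase, *Ddit4* at 86.4, *Asns* at 65.8, *Trib3* at 16.1, *Chac1* at 14.3, *Ddit3* at 11.5, *Sesn2* at 8.24, *Vldlr* at 8.18, *Ppp1r15a* at 7.87 and *Atf3* at 3.40. With PROTAC FAK degrader 1 the top of the order was *Ddit4* at 289.5, *Atf4* at 237.0, *Asns* at 146.4, *Ddit3* at 138.6 and *Trib3* at 111.5 CPM per kilobase, and *Vldlr* was last at 14.5. CHOP RNA thus moved from the middle of the genes to near the level of *Asns*.

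The size of each difference from DMSO, with its standard error from the fit across all genes, was as follows for the genes that differed most. With PROTAC FAK degrader 1 the log2 fold change was 3.59 (SE 0.054) for *Ddit3*, 2.86 (SE 0.048) for *Ppp1r15a*, 2.79 (SE 0.046) for *Trib3* and 2.71 (SE 0.081) for *Atf3*. With GSK215 it was −3.07 (SE 0.11) for *Chac1*, −2.67 (SE 0.081) for *Trib3* and −1.94 (SE 0.14) for *Atf3*. With VS-4718 it was −2.83 (SE 0.094) for *Chac1*, −2.61 (SE 0.074) for *Trib3* and −2.11 (SE 0.049) for *Ddit4*. The genes highest above DMSO, *Ddit3* and *Ppp1r15a*, were not those furthest below it, *Chac1* and *Trib3*. On the log2(CPM + 4) scale of limma-trend, which shrinks the differences of low genes, the value with GSK215 was −2.02 for *Chac1*, −2.04 for *Trib3* and −0.94 for *Atf3*, and with VS-4718 it was −1.91 for *Chac1*, −1.99 for *Trib3* and −1.99 for *Ddit4*, so *Chac1* was no longer the furthest below DMSO.

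**Figure D2:**
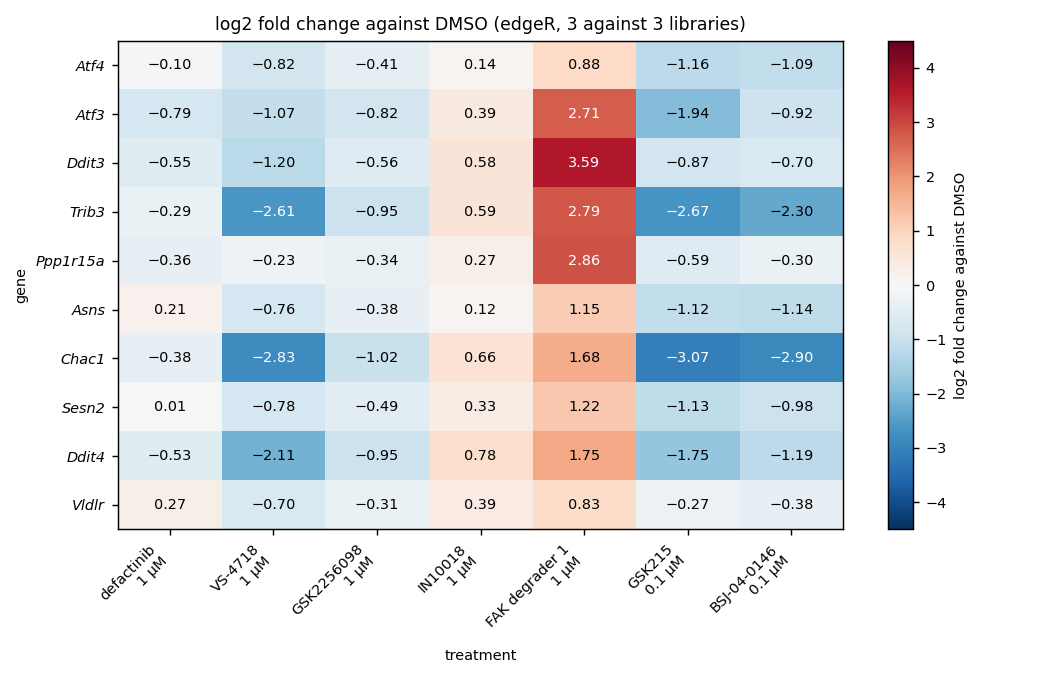
Fitted log2 fold change against DMSO (colour and printed value) of the 10 ISR genes (rows) for each drug (columns), 3 against 3 libraries. The PROTAC FAK degrader 1 column is positive throughout, from 0.83 for *Vldlr* to 3.59 for *Ddit3*, and the GSK215 column is negative throughout, down to −3.07 for *Chac1*.

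In the fit across all genes (edgeR quasi-likelihood, Benjamini-Hochberg adjusted *P* under 0.05), all 10 genes were called higher with PROTAC FAK degrader 1, where 34.1% of all tested genes were called higher and 32.7% lower, and all 10 with IN10018, where the shares were 6.44% and 6.85%. All 10 were called lower with VS-4718 (all genes 20.4% higher, 18.9% lower), with GSK2256098 (all genes 6.36% higher, 6.09% lower), with GSK215 (all genes 27.4% higher, 27.2% lower) and with BSJ-04-0146 (all genes 27.7% higher, 26.9% lower). With defactinib 2 were called higher and 7 lower (all genes 11.4% higher, 11.0% lower). In 69 of the 70 comparisons of a gene between a drug and DMSO, the 3 drug libraries did not overlap the 3 DMSO libraries, and the exception was *Sesn2* with defactinib. The IN10018 count was 9 without DMSO replicate 3 or IN10018 replicate 1, where *Asns* was not called, and with thinned libraries, where *Atf3* was not. With defactinib 6 were lower without DMSO replicate 1, without defactinib replicate 2 and with thinned libraries, where *Atf4* was not called. Since the genes were chosen on these contrasts, nothing is read from these counts. The median log2 fold change of the 10 genes was 1.71 with PROTAC FAK degrader 1, 0.39 with IN10018, −0.33 with defactinib, −0.53 with GSK2256098, −0.95 with VS-4718, −1.04 with BSJ-04-0146 and −1.15 with GSK215, whereas the median over all tested genes lay between −0.0044 and 0.021 in these comparisons.

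The profiles of the 10 genes were alike to different degrees, and differences between the profiles were not tested. Over the 8 treatment means of log2(CPM + 4), *Atf3*, *Ddit3* and *Ppp1r15a* correlated with each other at *r* = 0.982 to 0.988, and *Atf4* correlated with *Asns* at 0.989, with *Sesn2* at 0.988 and with *Chac1* at 0.987. Between these sets the values ran from 0.767 for *Chac1* and *Ppp1r15a* to 0.925 for *Sesn2* and *Atf3*, with 0.845 for *Atf4* and *Ddit3*. *Trib3*, at 0.979 with *Atf4* and 0.924 with *Ddit3*, and *Sesn2*, at 0.899 with *Ddit3*, lay between, so the sets grade into each other. The points are 8 means that share libraries, and PROTAC FAK degrader 1 is the extreme point for every gene, so these coefficients only describe the likeness of the profiles.

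Among 1141 other genes of sufficient level and range, the 5 with profiles most like *Ddit3* over the same 8 means were *Aaed1* (*r* = 0.997), *3110043O21Rik* (0.994), *Nupr1* (0.993), *Brd3os* (0.993) and *Cwc27* (0.992). NUPR1 is a stress-induced chromatin protein, and *Nupr1* was at 15.8, 17.3 and 17.7 CPM with DMSO and 136, 129.7 and 136 with PROTAC FAK degrader 1. The 5 most like *Atf4* were *Aldh18a1* (*r* = 0.995), *Nars* (0.992), *Psph* (0.992), *Dus4l* (0.991) and *Yars* (0.991). ALDH18A1 opens proline synthesis, PSPH completes serine synthesis, NARS and YARS charge tRNA with asparagine and tyrosine, and DUS4L is a tRNA-modifying enzyme. *Aldh18a1* was at 212 ± 2.49 CPM with DMSO, 429 ± 4.17 with PROTAC FAK degrader 1 and 98.5 ± 2.34 with GSK215.

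Other genes known as ATF4 targets were counted beside the 10. Of 39 such genes, 35 were higher and 1 lower with PROTAC FAK degrader 1, with a median log2 fold change of 0.96, and 19 were higher and 2 lower with IN10018 (0.16). With VS-4718, 1 was higher and 31 lower (−0.48), with GSK2256098 0 and 29 (−0.23), with GSK215 6 and 30 (−0.81), and with BSJ-04-0146 5 and 30 (−0.75). The shares of all genes called in these comparisons are those given above. With defactinib 16 of the 39 were higher and 5 lower (median 0.085), while 7 of the 10 ISR genes were called lower, and the difference between the sets was not tested. Leaving out a library changed the total number of the 39 genes called, higher and lower together, by no more than 1.5 times in any comparison.

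The 39 genes were divided by function after their values had been seen, and *Slc7a11*, *Slc6a9*, *Fgf21*, *Gdf15*, *Bbc3* and, in a later list, *Eif2s1* are named for the same reason. The 9 aminoacyl-tRNA synthetases, which load amino acids onto tRNA, were all higher with PROTAC FAK degrader 1 (all genes 34.1%), by 0.25 to 1.32 on the log2 scale, and all lower with VS-4718 (all genes 18.9%), GSK215 (27.2%) and BSJ-04-0146 (26.9%). These shares of all genes also stand behind the counts of the next groups, with 6.09% lower for GSK2256098 and 6.44% higher for IN10018. Of the 6 enzymes of serine, glycine and one-carbon metabolism, 5 were higher with PROTAC FAK degrader 1, and all 6 were lower with VS-4718, GSK2256098, GSK215 and BSJ-04-0146. *Aldh1l2*, a mitochondrial folate enzyme, was at 119, 118 and 112 CPM with DMSO, 623, 618 and 593 with PROTAC FAK degrader 1 (log2 fold change 2.39, SE 0.041, edgeR adjusted *P* = 3.3e-35) and 37.4, 32.7 and 36.4 with GSK215 (−1.72, SE 0.051, adjusted *P* = 4.9e-27). The 4 enzymes of proline, alanine and cysteine synthesis were all higher with PROTAC FAK degrader 1 and with IN10018, and all lower with VS-4718, GSK2256098, GSK215 and BSJ-04-0146. IN10018 had only 4 of the 9 synthetases and 1 of the 6 serine, glycine and one-carbon enzymes higher, and 0 lower. For defactinib (all genes 11.4% higher, 11.0% lower), 5 of the 9, 3 of the 6 and 2 of the 4 were higher, and 1 of the 6 was lower. *Cth*, which makes cysteine from cystathionine, was at 29.9 ± 1.68 CPM with DMSO, 103 ± 2.06 with PROTAC FAK degrader 1 and 8.05 ± 0.498 with BSJ-04-0146, with log2 fold changes of 1.79 (SE 0.056) and −1.89 (SE 0.084).

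Transporters of amino acids were less uniform. Of 7, 5 were higher with PROTAC FAK degrader 1, *Slc38a2* was lower (−0.78) and *Slc7a3* did not pass the test. With defactinib 6 of the 7 were higher (all genes 11.4%), by up to 0.40 for the glycine transporter gene *Slc6a9* and 0.40 for the cystine transporter gene *Slc7a11*. *Slc7a11* was lower with GSK215 (−2.75), BSJ-04-0146 (−2.57) and VS-4718 (−2.54). Secreted factors included *Fgf21*, a metabolic hormone, with a log2 fold change of 2.63 with PROTAC FAK degrader 1 and −4.02 with VS-4718, and *Gdf15*, a stress cytokine, which was higher with PROTAC FAK degrader 1 (2.51) and did not pass the test with GSK215 (−0.70) or VS-4718 (−0.046). On the log2(CPM + 4) scale the treatment means of *Fgf21* spanned no more than the 3.16 of *Gadd45a*. The *Fgf21* value with VS-4718 thus rests on a low level. *Gadd45a*, a growth arrest gene, was at 17.1, 17.0 and 16.6 CPM with DMSO and 141, 137 and 139.6 with PROTAC FAK degrader 1 (log2 fold change 3.04, SE 0.066, edgeR adjusted *P* = 5.4e-32), and *Bbc3*, which encodes the death protein PUMA, was higher by 2.75.

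Of the 39 genes, the number not called was 3 with PROTAC FAK degrader 1, 3 with GSK215, 4 with BSJ-04-0146, 7 with VS-4718, 10 with GSK2256098, 18 with IN10018 and 18 with defactinib. These numbers do not rank the drugs, because the share of all genes called also differed between them, as given above. With PROTAC FAK degrader 1, *Slc7a3* (−0.43), *Phgdh* (−0.044), the first enzyme of serine synthesis, and *Tnfrsf10b* (−0.19), a death receptor gene, did not pass the test. With GSK215, the 6 genes called higher were *Slc7a3* (0.57), *Slc6a9* (0.21), *Slc38a2* (0.12), *Gadd45a* (0.23) and the autophagy genes *Sqstm1* (0.24) and *Map1lc3b* (0.64), and those not called were *Gdf15*, *Tnfrsf10b* (−0.12) and *Bbc3* (−0.051). With BSJ-04-0146, 5 of these 6 were called higher, all but *Slc38a2* (0.022), which was not called, nor were *Gdf15* (−0.11), *Bbc3* (0.050) and *Eif4ebp1* (−0.12), the gene of a translation repressor. The 2 genes lower with IN10018 were the transporter genes *Slc7a5* (−0.15) and *Slc38a2* (−0.16), and the 1 higher with VS-4718 was *Map1lc3b* (0.38). *Sqstm1* and *Map1lc3b* were thus higher with all 3 PROTACs, by 1.76, 0.24 and 0.81, and by 0.97, 0.64 and 1.02, for PROTAC FAK degrader 1, GSK215 and BSJ-04-0146 in turn. Both were also called higher with the kinase inhibitor IN10018, by 0.17 to 0.27 (all genes 6.44% higher).

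**Figure D3:**
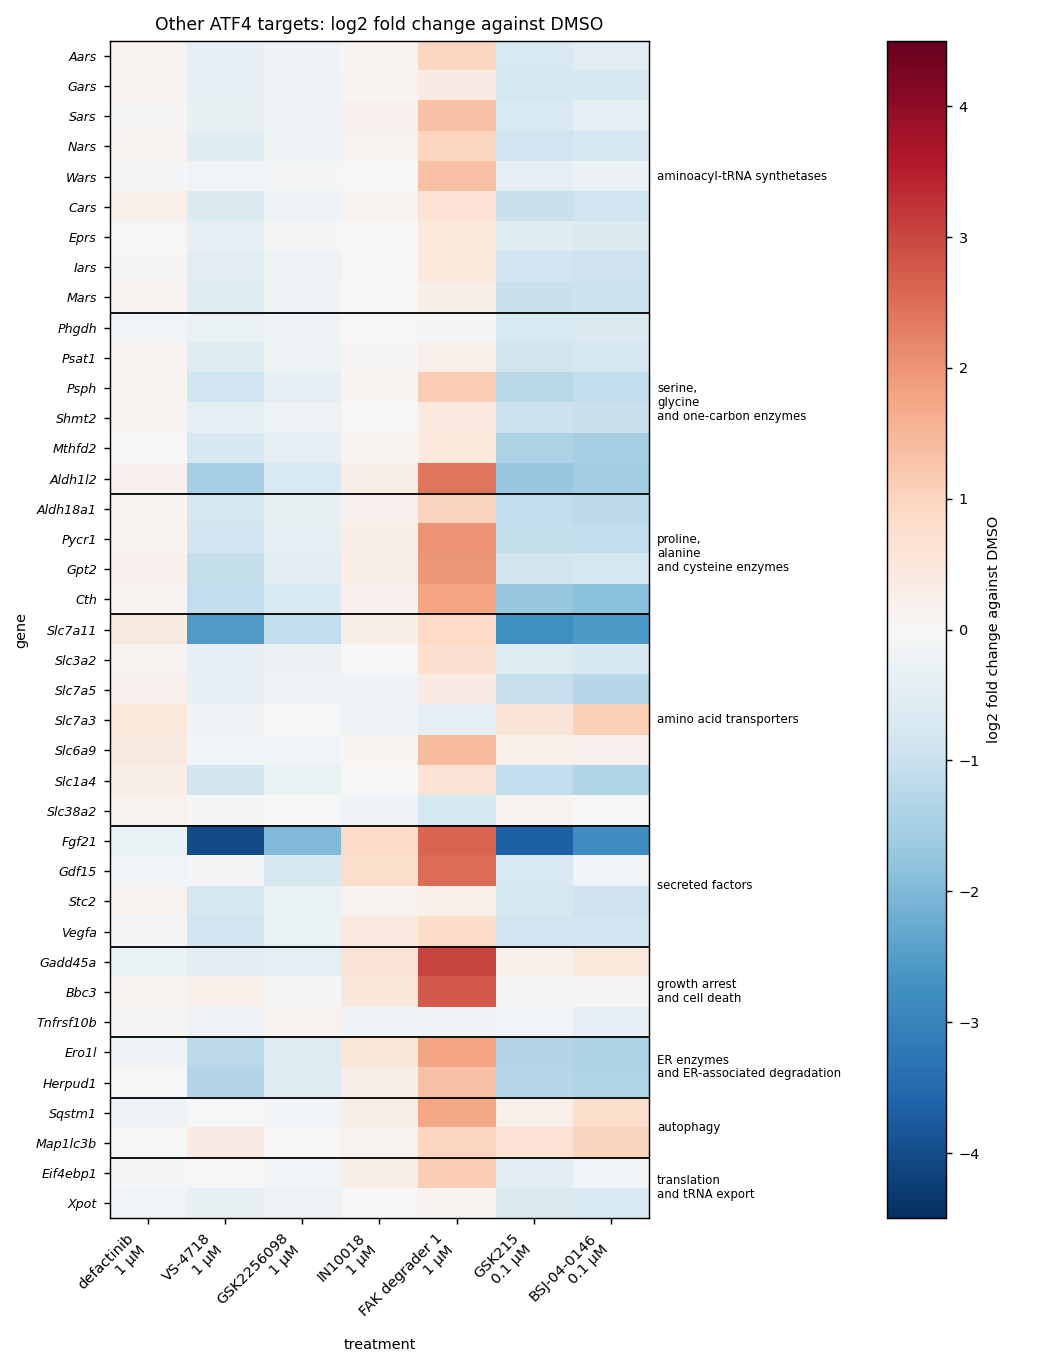
Fitted log2 fold change against DMSO (colour) of 39 other known ATF4 targets (rows, grouped by function) for each drug (columns). The synthetases and the enzymes of amino acid synthesis are mostly red with PROTAC FAK degrader 1 and blue with VS-4718, GSK215 and BSJ-04-0146, while *Slc38a2* and the autophagy genes *Sqstm1* and *Map1lc3b* depart from the rest.

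Partners of ATF4 among bZIP factors and their regulators numbered 9, and with PROTAC FAK degrader 1, where 34.1% of all genes were higher and 32.7% lower, 7 of them were higher and 1 was lower, *Cebpa* (−0.66). Counts of genes higher and lower were 4 and 3 with GSK215, 4 and 3 with BSJ-04-0146, 3 and 1 with defactinib, 2 and 3 with VS-4718, 2 and 0 with IN10018, and 0 and 2 with GSK2256098. The share of all genes called also differed between the drugs, as given above, so the counts do not rank them. Scaled by library totals alone, GSK215 gave 6 and 3, and with DESeq2 IN10018 gave 1 and 0. The largest rise was that of *Nupr1*, with a log2 fold change of 2.98 (SE 0.056, edgeR adjusted *P* = 4.2e-34). *Atf5*, whose translation is controlled like that of *Atf4*, was at 60.3, 57.4 and 58.8 CPM with DMSO and 184, 172 and 178 with PROTAC FAK degrader 1 (1.60, SE 0.039). *Atf5* was also higher with defactinib (0.52, SE 0.041, edgeR adjusted *P* = 2.7e-12), where *Atf4* and *Atf3* were lower. *Cebpg*, a dimer partner of ATF4, was higher by 1.13 with PROTAC FAK degrader 1 and lower with GSK215 (−0.51) and BSJ-04-0146 (−0.50).

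The genes that sense stress and control eIF2 had log2 fold changes from −0.55 to 0.57 with PROTAC FAK degrader 1. Of 14 tested, 3 were higher and 9 lower with PROTAC FAK degrader 1 (all genes 32.7% lower), 2 and 10 with GSK215 (all genes 27.2% lower) and 2 and 10 with BSJ-04-0146 (all genes 26.9% lower). Scaling by library totals alone gave 3 and 6 with GSK215, where *Eif2ak1* and *Gcn1* changed sign, and 4 and 7 with BSJ-04-0146, which had 1 and 10 with DESeq2. It gave 0 and 1 with GSK2256098, which had 0 and 3 with DESeq2, and 0 and 1 with IN10018. With GSK2256098 there were 0 and 2 (all genes 6.09% lower), with IN10018 0 and 2 (6.85%), with defactinib 1 and 4 (11.0%), and with VS-4718 3 and 6 (18.9%). Differences between drugs in these counts were not tested. The 3 that were higher with PROTAC FAK degrader 1 were *Eif2ak3* (0.21) and *Eif2ak4* (0.29), which encode PERK and GCN2, and *0610009O20Rik* (0.57, SE 0.042), which encodes DELE1, the relay of mitochondrial stress to HRI. *Eif2ak1*, which encodes HRI, was lower (−0.46, SE 0.040). *Ppp1r15b*, the constitutive counterpart of *Ppp1r15a*, was at 187, 183 and 183 CPM with DMSO and 135, 134 and 136 with PROTAC FAK degrader 1 (−0.45, SE 0.030, edgeR adjusted *P* = 3.0e-16), opposite in direction to *Ppp1r15a*. *Eif2s1*, which encodes eIF2 alpha itself, was lower with PROTAC FAK degrader 1 (−0.55), GSK215 (−0.44) and BSJ-04-0146 (−0.37).

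Of 7 paralogs of the 10 genes tested, 3 were higher and 3 lower with PROTAC FAK degrader 1 (all genes 34.1% and 32.7%), 2 and 2 with GSK215 (27.4% and 27.2%), 3 and 2 with BSJ-04-0146 (27.7% and 26.9%), 2 and 3 with VS-4718 (20.4% and 18.9%), 2 and 2 with IN10018 (6.44% and 6.85%), 1 and 0 with defactinib (11.4% and 11.0%) and 1 and 0 with GSK2256098 (6.36% and 6.09%). Scaled by library totals alone, the counts were 4 and 2 with GSK215, 4 and 2 with BSJ-04-0146 and 3 and 3 with VS-4718. *Lrp8*, a receptor gene related to *Vldlr*, was lower with PROTAC FAK degrader 1 (−1.35) and GSK215 (−1.10). *Trib1* was lower with PROTAC FAK degrader 1 (−0.67) while *Trib2* did not pass the test (0.041). *Sesn3*, a paralog of *Sesn2*, was higher with PROTAC FAK degrader 1 (1.16), GSK215 (1.02) and BSJ-04-0146 (0.88), the opposite of *Sesn2* with the latter 2 drugs. Kinase inhibitors also had *Sesn3* libraries above those of DMSO, which were at 30.7 to 31.9 CPM. These were VS-4718 at 46.7 to 47.0 CPM, GSK2256098 at 36.7 to 39.4 and defactinib at 34.8 to 37.4. *Sesn2* was lower with VS-4718 (−0.78) and GSK2256098 (−0.49).

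The XBP1 and ATF6 arms of the unfolded protein response, which raise chaperones of the endoplasmic reticulum, were mixed. Here and in the lists that follow, the shares of all genes called differ between drugs as given above, and differences between drugs in the counts were not tested. Of 17 genes, 9 were higher and 6 lower with PROTAC FAK degrader 1 (median 0.13), 8 and 1 with defactinib, 2 and 6 with VS-4718, 3 and 1 with GSK2256098, 1 and 6 with IN10018, 6 and 8 with GSK215, and 1 and 11 with BSJ-04-0146. Scaled by library totals alone, GSK215 gave 7 and 5, BSJ-04-0146 gave 3 and 9 and VS-4718 gave 4 and 5, and with DESeq2 GSK215 gave 4 and 9. In the direct contrast of GSK215 with BSJ-04-0146, both at 0.1 µM, 11 of the 17 were higher with GSK215 and 0 lower (median 0.18). Of all genes, 9.88% were higher and 12.6% lower in that contrast. With PROTAC FAK degrader 1, *Hspa5*, which encodes the chaperone BiP and is also induced by ATF4, was higher by 0.64 (SE 0.030) and *Xbp1* by 0.92 (SE 0.043), whereas *Dnajb11*, a BiP cofactor gene, was lower (−1.06, SE 0.039).

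Hypoxia-inducible genes, some of which also answer to other stresses, numbered 12. All 12 were higher with IN10018 (median 0.44, all genes 6.44% higher), and 8 were higher and 1 lower with PROTAC FAK degrader 1 (median 0.50, all genes 34.1% and 32.7%). All 12 were lower with VS-4718 (median −0.72, all genes 18.9% lower), GSK2256098 (−0.28, all genes 6.09%) and GSK215 (−0.96, all genes 27.2%). With BSJ-04-0146 11 were lower and 0 higher (all genes 26.9% lower), and with defactinib 8 and 0 (11.0%). *Ndrg1* was higher by 2.53 and *Bnip3* by 1.14 with PROTAC FAK degrader 1, and *Bhlhe40* was lower with GSK215 (−2.23). *Ddit4* and *Vegfa* are known to respond to hypoxia as well, and the part of hypoxia in their values was not tested.

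Of 10 p53 targets, 8 were higher and 1 lower with PROTAC FAK degrader 1, where 34.1% and 32.7% of all genes were. With GSK215 3 were higher and 5 lower (all genes 27.4% and 27.2%), and with BSJ-04-0146 4 and 4 (27.7% and 26.9%). Among the kinase inhibitors, VS-4718 had 3 and 2, IN10018 had 2 and 2, defactinib had 0 and 4 and GSK2256098 had 0 and 2. With DESeq2 IN10018 gave 1 and 2. *Cdkn1a*, the cell cycle inhibitor p21, had log2 fold changes of 1.32 for PROTAC FAK degrader 1, 0.76 for IN10018 and −1.82 for GSK215. *Trp53inp1*, an autophagy and stress gene, was higher with PROTAC FAK degrader 1 (3.16), GSK215 (2.35) and BSJ-04-0146 (2.58). Its DMSO level was low, at 2.49 to 2.93 CPM. The libraries of VS-4718, at 3.87 to 5.28 CPM, and of IN10018, at 3.22 to 3.83, also lay above DMSO. *Eda2r* was higher by 1.83 with PROTAC FAK degrader 1. Of 8 immediate early genes, to which *Atf3* is related in its fast induction, 6 were higher and 1 lower with PROTAC FAK degrader 1, 3 and 4 with GSK215, 2 and 4 with BSJ-04-0146, 3 and 3 with VS-4718, 3 and 0 with IN10018, 0 and 4 with defactinib, and 0 and 1 with GSK2256098, which had 1 and 1 with library totals alone. *Fos* was higher by 2.86 (SE 0.24) with PROTAC FAK degrader 1, while with GSK215 *Egr1* was higher (1.22) and *Myc* lower (−0.60).

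**Figure D4:**
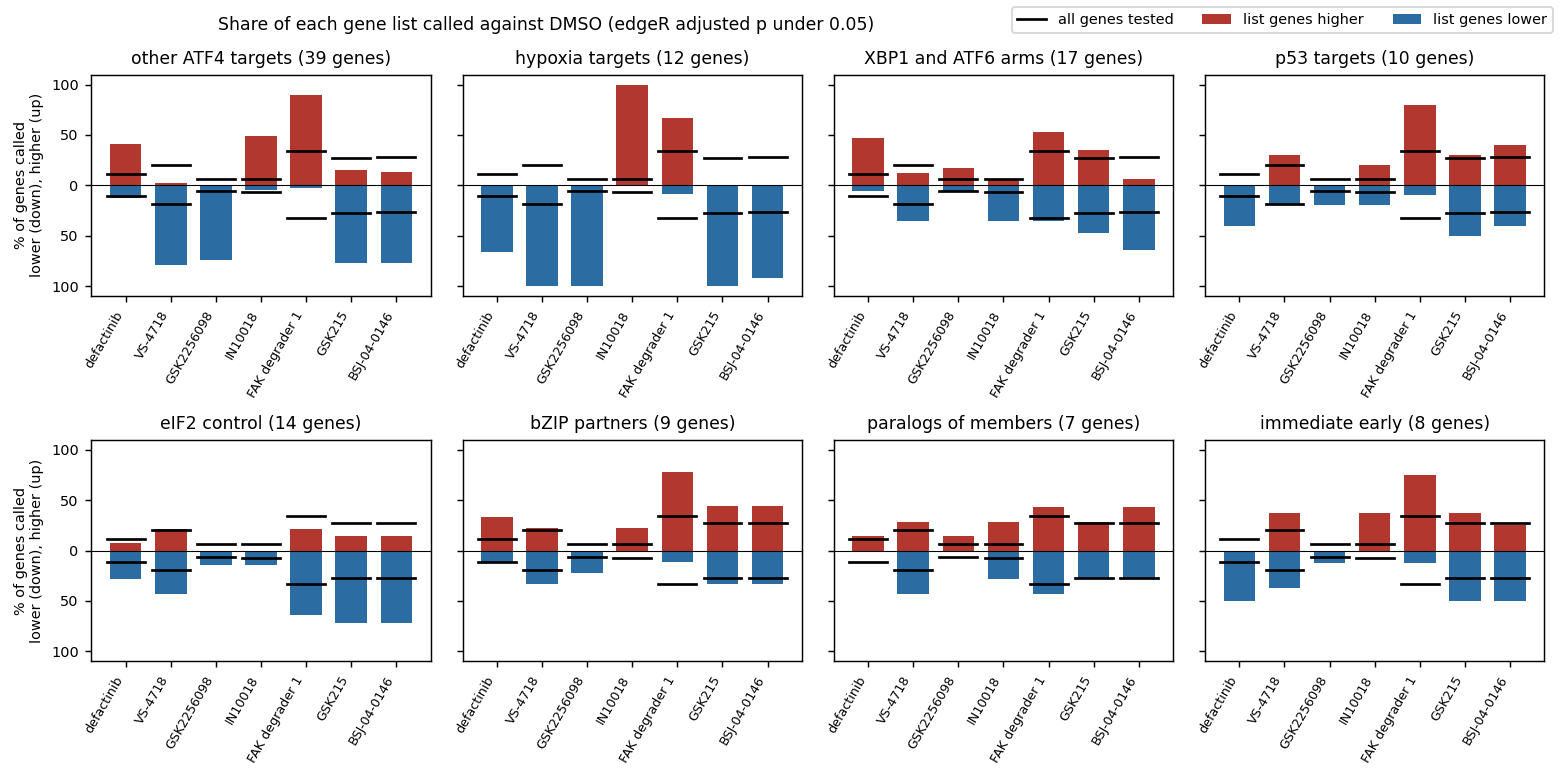
Share of each gene list (bars, %) called higher (red, upward) or lower (blue, downward) than DMSO at an edgeR adjusted *P* under 0.05, with the share of all tested genes called in the same direction as a black line. With PROTAC FAK degrader 1, 35 of 39 other ATF4 targets were higher, where 34.1% of all genes were. So were 8 of 10 p53 targets, 7 of 9 bZIP partners, 6 of 8 immediate early genes and 8 of 12 hypoxia targets. The counts were 9 of 17 for the XBP1 and ATF6 arms, 3 of 14 for eIF2 control genes and 3 of 7 for paralogs.

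Drugs at the same dose were then set against each other, in 2 pairs chosen for matched dose and time. PROTAC FAK degrader 1 and defactinib, both at 1 µM, were the first pair. All 10 ISR genes were called higher with the PROTAC (all genes 34.9% higher, 34.0% lower), and since the genes were chosen with their levels in both groups known, nothing is read from this count or from that of the next pair. *Ddit3* was 17.7-fold higher, with a log2 difference of 4.15 (SE 0.057), *Atf3* differed by 3.51, *Ppp1r15a* by 3.22 and *Trib3* by 3.09. The smallest differences were those of *Atf4* (0.99), *Asns* (0.94) and *Vldlr* (0.56). Of the 39 other ATF4 targets 36 were higher and 3 lower with the PROTAC, with a median of 0.86.

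GSK215 and BSJ-04-0146, both PROTACs at 0.1 µM, differed for fewer genes (all genes 9.88% higher and 12.6% lower with GSK215). Of the 10 ISR genes, *Atf3* (−1.01, SE 0.17), *Ddit4* (−0.57, SE 0.055), *Trib3* (−0.37, SE 0.12) and *Ppp1r15a* (−0.29, SE 0.072) were called lower with GSK215. *Vldlr* was called higher by 0.11, although its libraries overlapped, and it was not called without the filter on low counts, with a replicate block, with only the 6 libraries of the pair, with libraries thinned to the smallest total or without GSK215 replicates 1 or 3 or BSJ-04-0146 replicates 2 or 3. *Trib3* was not called without GSK215 replicate 1 or 2. For the other 5, the 95% interval of the log2 difference was −0.063 to 0.098 for *Asns*, −0.51 to 0.17 for *Chac1*, −0.37 to 0.014 for *Ddit3*, −0.32 to 0.013 for *Sesn2* and −0.14 to 0.0026 for *Atf4*. These intervals bound the differences and do not show that the drugs act alike. Of the 39 other ATF4 targets 4 were higher and 10 lower with GSK215. *Cth* did not pass the test (0.18, 95% interval −0.043 to 0.40, edgeR adjusted *P* = 0.27), and *Aldh1l2* was lower (−0.17, edgeR adjusted *P* = 0.037). PROTAC FAK degrader 1 was used at 10 times the dose of the other PROTACs, so its values stand beside theirs at unequal doses, and no test set it against them.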

How the data were processed

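RNA of 24 MS03 libraries was sequenced by a commercial service after poly(A) selection. The authors deposited 1 table of raw counts per gene, whole numbers for 49315 genes with no normalization, and the submitters' processing notes name Trimmomatic 0.36, STAR 2.5.2b, featureCounts of Subread 1.5.2 and GRCm38. The annotation and strand setting are not given in the sources used here, and gene positions are those of GENCODE M21. Overlapping genes could therefore share reads.

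From the counts, edgeR 4.0.16 in R 4.3.3 (TMM, filterByExpr, glmQLFit and glmQLFTest, 8 groups, 16 residual degrees of freedom) gave log2 fold changes and two-sided *P* values, adjusted by the Benjamini-Hochberg method over the 16070 genes kept, called below 0.05. Each SE was taken as |log2 fold change| over the root of its F value, and 95% intervals use the total degrees of freedom of the test. CPM uses TMM library sizes. The study states log2(CPM + 4), used here for likeness, where genes needed a mean of 5 CPM and a range of 1 on the log2 scale, and for limma-trend (limma 3.58.1). Scripts were tested on simulated data.

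The 10 genes, the gene lists and the motifs were chosen with earlier results of these data known. Named genes were the 10 genes, the 3 of each list with the widest range over the treatment means, members of counts of 5 or fewer, and the 5 genes most like *Ddit3* and *Atf4*, besides those said to be chosen later. Some items of the lists are not reported here. Promoters were those of RefSeq on GRCm38.p6. Alternatives were DESeq2 1.42.0, library totals alone, limma-trend, no filter, a replicate block, only the 6 libraries of a comparison, libraries thinned to the smallest total, and leaving out each replicate.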

Additional observations from a re-analysis of the deposited data

How the results depend on the processing

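No difference between a drug and DMSO changed direction for the median of the 10 ISR genes under any alternative. The alternatives were DESeq2, library totals alone, limma-trend, no filter, the 6 libraries of a comparison, thinning, the replicate block and leaving out each replicate. Under all of them, each total of other ATF4 targets called, higher and lower together, stayed within 1.5 times. Small counts in 1 direction moved more. The 1 target higher with VS-4718 became 2 with library totals alone and with thinning. The 1 lower with PROTAC FAK degrader 1 became 2 with thinning. With limma-trend on log2(CPM + 4) the median log2 fold change of the 10 genes was −0.77 for VS-4718, −0.44 for GSK2256098, 1.62 for PROTAC FAK degrader 1, −1.01 for GSK215 and −0.94 for BSJ-04-0146, and the cause was not tested. With library totals alone it was −1.02 for GSK215, −0.93 for BSJ-04-0146 and 1.80 for PROTAC FAK degrader 1. Library totals alone also moved the median of all genes to 0.143 with GSK215 and 0.126 with BSJ-04-0146, and raised the share of calls that were higher from 50.2% to 68.3% with GSK215, from 50.7% to 67.0% with BSJ-04-0146 and from 51.9% to 62.6% with VS-4718. Of 70 values of a single gene against DMSO, 27 moved by more than the spread between replicates with limma-trend and 16 with library totals alone. With limma-trend the log2 fold change of *Atf3* was over 1.5 times smaller, at −0.94 for GSK215, −0.59 for VS-4718, −0.53 for BSJ-04-0146, −0.48 for GSK2256098 and −0.46 for defactinib, and so was that of *Chac1* with GSK215 (−2.02). With library totals alone *Vldlr* was at −0.15 for GSK215 and *Ppp1r15a* at −0.19 for BSJ-04-0146. Leaving out a replicate gave a median of −1.11 to −1.02 for BSJ-04-0146. It lowered the number of genes called from 2001 to between 1295 and 1619 for GSK2256098, with 1295 without its replicate 3, and from 2136 to between 1398 and 1843 for IN10018, with 1398 without DMSO replicate 2 and 1405 without IN10018 replicate 3, where fewer samples entered the fit.

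Replicate numbers are shared across treatments, but samples with the same number did not deviate together (*r* of −0.183 to 0.153 over 27 pairs), so the numbers were not taken to pair the samples. With the replicate number as a block, the median of the 10 genes was −1.15 for GSK215 and 1.71 for PROTAC FAK degrader 1, with 8721 and 10700 genes called, compared with 8786 and 10741 without it. It ended the call of *Vldlr* between GSK215 and BSJ-04-0146. *Atf3* had as few as 23 counts in a library, so its differences among the lower groups are the least precise.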
